A study of Mus musculus with 11 samples.

Results

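The insulin-like growth factor genes described here are the 2 ligands Igf1 and Igf2, the receptors Igf1r and Igf2r, and the 6 binding-protein genes Igfbp2 to Igfbp7. They were chosen by gene symbol and make up 10 of the 35683 genes and 42 of the 113193 distinct transcripts in the table. RNA came from the whole colon wall of 2-week-old mice, 6 of genotype Tnfr1-/- and 5 wild type, with 1 mouse per library. Tnfr1-/- mice lack a working copy of Tnfrsf1a, the gene of the TNF receptor TNFR1. The labels give no strain, sex, litter or batch, and do not describe the deletion allele.

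IGF1 and IGF2 are secreted peptides related to insulin that drive growth through IGF1R, a receptor tyrosine kinase at the cell surface. IGF2R is the mannose-6-phosphate receptor, which takes IGF2 up and delivers it to lysosomes. In mice Igf2 is imprinted and transcribed from the paternal copy in most tissues, Igf2r is transcribed mainly from the maternal copy, and Igf2 RNA is high in the fetus and declines after birth. The binding proteins hold the peptides in blood and tissue, and proteases such as PAPP-A release them. In the gut wall these factors are known mainly as products of mesenchymal and smooth muscle cells, and are studied for their part in the growth of the intestine after birth and in its repair.

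Several sequences are shown because Igf1, Igf2 and Igfbp2 each have transcripts that differ in their start or their coding end. The following are the RefSeq bases before the start that gave most start-specific Igf2 RNA (GRCm38.p6, chr7:142657497-142657746, minus strand), before the first start of Igfbp2 (chr1:72824230-72824479, plus strand) and before the internal start of Igfbp2 as GENCODE M21 places it (chr1:72825137-72825321, plus strand). Capitals mark the letters GGGCGG, the core of a GC box, searched on both strands. The letters TATAAA, the core of a TATA box, were searched in the same way. Of 32851 RefSeq windows of the 250 bases before a start, 32.7% held GGGCGG or its complement, and 12.4% held TATAAA or its complement. The Igf2 window held GGGCGG 2 times, the first Igfbp2 window 3 times, and the shorter window before the internal start, 185 bases, held none. TATAAA was in none of them.
Igf2 main start: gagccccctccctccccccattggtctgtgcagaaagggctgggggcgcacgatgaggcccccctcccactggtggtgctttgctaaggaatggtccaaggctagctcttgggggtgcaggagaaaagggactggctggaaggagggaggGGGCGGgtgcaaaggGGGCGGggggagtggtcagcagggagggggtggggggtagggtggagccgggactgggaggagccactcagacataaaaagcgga
Igfbp2 first start: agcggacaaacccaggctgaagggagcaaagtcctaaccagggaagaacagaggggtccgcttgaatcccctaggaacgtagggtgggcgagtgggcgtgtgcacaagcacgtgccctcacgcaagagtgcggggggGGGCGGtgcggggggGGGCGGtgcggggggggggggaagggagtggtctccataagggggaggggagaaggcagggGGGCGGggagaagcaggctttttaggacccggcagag
Igfbp2 internal start: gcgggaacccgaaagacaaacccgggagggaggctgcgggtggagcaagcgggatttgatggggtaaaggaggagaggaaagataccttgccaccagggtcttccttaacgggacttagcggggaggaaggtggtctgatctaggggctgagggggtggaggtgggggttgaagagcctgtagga

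The coding ends of 2 Igf1 transcripts are shown because they set apart 2 precursors of the same peptide (GENCODE M21, GRCm38, chromosome 10, plus strand). Igf1-202 ends its coding sequence on the 57 bases at chr10:87930675-87930731. Igf1-206 carries a 52-base exon at chr10:87915298-87915349 before the same end, here in capitals, and stops 23 bases into the shared exon. The 2 transcripts also differ in their first coding exon, not shown. The mature peptide lies upstream of this point, and the exon alters only the tail of the precursor, a form known in rodents as the Eb or mechano-growth-factor precursor.
Igf1-202 coding end: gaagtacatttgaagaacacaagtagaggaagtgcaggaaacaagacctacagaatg
Igf1-206 coding end: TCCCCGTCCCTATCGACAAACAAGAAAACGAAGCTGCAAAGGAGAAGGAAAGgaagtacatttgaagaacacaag

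Values are TPM, a measure of transcript copies relative to the whole library, scaled by 1 size factor per library and added up over the transcripts of a gene; they are called abundance here. Because TPM is per length, abundances may be set side by side between genes. Depth, estimated from the table, ran from 29.5 to 39.7 M reads in Tnfr1-/- libraries and from 27.5 to 42.0 M in wild-type libraries. Tnfrsf1a, the check of the labels, lay between 19.01 and 28.0 in Tnfr1-/- colons and between 61.7 and 73.1 in wild-type colons, and was the 1 gene called different. All 9 markers of colon epithelium were present, the lowest with a mean of 17.3, while the 4 pancreatic markers summed to at most 0.568 in any library. RNA of 6 skeletal muscle markers varied between libraries and was highest in Tnfr1-/- replicates 2 and 5 and in wild-type replicate 5. Wild-type replicates 1 and 2 had the highest sums of epithelial markers and the lowest of fibroblast markers. Results that rest on these libraries are given with and without them. In whole tissue, fewer cells of a type and less RNA per cell cannot be told apart.

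No insulin-like growth factor gene was called different between Tnfr1-/- and wild-type colons. All 10 were tested in a fit over 15079 genes with limma, and the adjusted p-values ran from 0.429 to 0.968. The count of 0 of 10 stood beside 0.00663% of all tested genes called. At an unadjusted p under 0.05 there was 1 of 10, Igfbp3, where 9.37% of all tested genes passed. Tnfr1-/- and wild-type libraries overlapped for all 10 genes, and were apart for 1.49% of tested genes. The fitted log2 fold change was above 0 for 9 genes and below 0 for 1, with a median of 0.19, beside a median of -0.01 and 47.9% above 0 over all tested genes. Since the levels of these genes follow each other from library to library, the 9 are not separate observations. Several marker lists of cell types also leaned to one side and others did not, with 0 genes called in any list. The fitted difference was above 0 for 0 of 9 markers of colon epithelium, which summed to 4187 to 5471 in Tnfr1-/- colons and 4401 to 7439 in wild-type colons. It was above 0 for 8 of 8 smooth muscle markers, which summed to 6654 to 8896 in Tnfr1-/- colons and 4624 to 12054 in wild-type colons, and for 6 of 8 fibroblast markers. It was also above 0 for 5 of 5 squamous epithelium markers, which summed to 199.02 to 1309 in Tnfr1-/- colons and 449 to 709 in wild-type colons, and below 0 for all 7 tested markers of enteric neurons. Counts above 0 were 1 of 8 for macrophage and leukocyte markers, 5 of 8 for endothelium and 4 of 4 tested for mesothelium. For enteric glia the count was 2 of 5 tested. No marker of the lists named here was at 0 in every library, and their part in the direction of the 10 genes was not tested. The 95% interval lay within 2-fold either way for 8 of the genes, all but Igf2 and Igfbp6, and within 1.5-fold for 5.

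**Figure D1:**
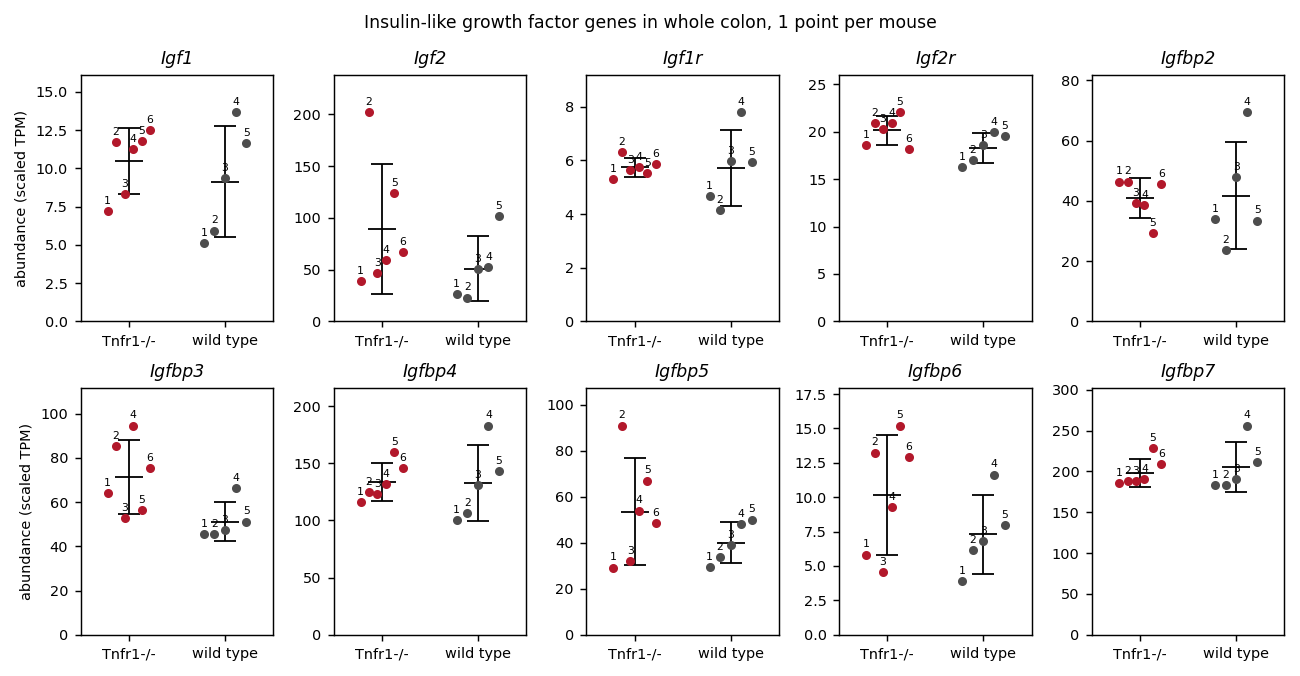
Abundance (scaled TPM, linear axis from 0) of each of the 10 genes, 1 point per mouse with its replicate number, Tnfr1-/- on the left and wild type on the right. Horizontal bars are the mean and 1 SD on each side. The groups overlap in every panel, Tnfr1-/- replicate 2 stands highest for Igf2 (202) and Igfbp5 (90.9), and wild-type replicate 4 stands highest for Igfbp2 (69.4), Igfbp4 (183) and Igfbp7 (256).

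Igf1, the ligand made under growth hormone control in liver and locally in tissues, had an abundance of 7.22, 11.7, 8.32, 11.2, 11.8 and 12.5 in Tnfr1-/- replicates 1 to 6, and of 5.11, 5.93, 9.36, 13.7 and 11.6 in wild-type replicates 1 to 5. The 2 lowest libraries and the highest one were all wild type. On the log2 scale the difference came to 0.25, with an SE of 0.25 (limma adjusted p = 0.783). Without wild-type replicates 1 and 2 it was -0.15, so its sign rested on those 2 mice, and leaving out 1 library at a time gave 0.0747, without wild-type replicate 1, to 0.41, without wild-type replicate 4. The gene lies at chr10:87858265-87937042 on GRCm38.

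Igf2, the fetal growth ligand, was the most variable of the 10 genes, with a highest value 8.77 times the lowest. Its abundance was 38.7, 202, 46.4, 59.1, 124 and 66.6 in Tnfr1-/- replicates 1 to 6. Wild-type replicates 1 to 5 had 26.8, 23.1, 50.8, 52.5 and 102. Tnfr1-/- replicates 2 and 5 and wild-type replicate 5 were the 3 highest, and the lowest 2 were wild-type replicates 1 and 2. The group means were 89.5 ± 62.9 in Tnfr1-/- colons (SD, n = 6) and 51.0 ± 31.6 in wild-type colons (SD, n = 5). The log2 difference was 0.76, with an SE of 0.48 (limma adjusted p = 0.656), and had a 95% interval of -0.30 to 1.81, whose upper end is a 3.50-fold higher abundance. The gene lies on the minus strand at chr7:142650766-142666816.

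The 3 libraries with most Igf2 RNA were also the 3 with most skeletal muscle RNA. The 6 skeletal muscle markers, Acta1, Ckm, Myh4, Tnnt3, Mylpf and Myh8, summed to 734, 8118, 541, 1008, 2610 and 595 in Tnfr1-/- replicates 1 to 6. In wild-type replicates 1 to 5 they summed to 637, 636, 411, 550 and 1735. None of the 6 was at 0 over the libraries, and all 6 had a fitted difference above 0, with 0 called. Without those 3 libraries the log2 fold change of Igf2 was 0.52 (limma adjusted p = 0.741), and with the muscle markers as a covariate it was 0.28 (limma adjusted p = 0.882), both chosen after seeing the data. Without wild-type replicates 1 and 2 it was 0.21, and leaving out 1 library at a time gave 0.47, without Tnfr1-/- replicate 2, to 1.06, without wild-type replicate 5. The part of muscle RNA in the Igf2 difference was not tested beyond these values.

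Igf2 RNA came from several starts. Among transcripts whose annotated start tells them apart, the start at position 142657496 gave 86.9 ± 4.03% in Tnfr1-/- colons (SD, n = 6) and 92.3 ± 3.14% in wild-type colons (SD, n = 5). The start at 142659489, further upstream, gave 7.72, 14.96, 5.86, 5.68, 11.6 and 8.22% in Tnfr1-/- replicates 1 to 6, and 3.58, 8.59, 4.08, 6.88 and 4.52% in wild-type replicates 1 to 5. Its share was highest in Tnfr1-/- replicates 2 and 5, and the groups overlapped. The start at 142661305 gave 4.05 ± 1.76% in Tnfr1-/- colons and 2.17 ± 1.25% in wild-type colons. The start furthest upstream, at 142666816, was listed at 0 in every library. These start shares were not tested. These transcripts share most of their bases, so with reads of 75 bases the assignment of a read to 1 of them is uncertain.

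The 2 Igf2 transcripts from the upstream starts had the largest fitted differences among transcripts of these genes. Igf2-204, from 142661305, had an abundance of 0.606, 6.72, 1.05, 2.17, 3.85 and 0.661 in Tnfr1-/- replicates 1 to 6, and of 0.290, 0.352, 0.197, 1.28 and 0.772 in wild-type replicates 1 to 5. Igf2-205, from 142659489, had 1.70, 21.5, 1.65, 1.80, 9.79 and 3.08 in Tnfr1-/- replicates 1 to 6, and 0.498, 1.04, 1.43, 2.32 and 2.28 in wild-type replicates 1 to 5. Both were highest in Tnfr1-/- replicates 2 and 5, the libraries with most skeletal muscle RNA. Igf2-204 differed by 1.21 on the log2 scale, with an SE of 0.50 (limma adjusted p = 0.579), and Igf2-205 by 1.28, with an SE of 0.62 (limma adjusted p = 0.632). The main coding transcript, Igf2-201, made up 40.1 ± 4.65% of Igf2 abundance in Tnfr1-/- colons and 37.6 ± 10.01% in wild-type colons. Igf2-208, a transcript from the 3′ part of the gene annotated without a coding sequence, made up 38.7 ± 7.01% in Tnfr1-/- colons and 41.7 ± 9.14% in wild-type colons. A predicted gene, Gm49394, shares 3596 exonic bases with Igf2 on the same strand and was at 0.548 or below in every library; it was named after its values were seen.

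For Igf1, most RNA was assigned to Igf1-202, whose precursor has 153 codons. Its share was 90.1 ± 3.56% in Tnfr1-/- colons (SD, n = 6) and 90.5 ± 3.76% in wild-type colons (SD, n = 5). Igf1-206, with the 52-base exon printed above, made up 5.10 to 13.3% in Tnfr1-/- colons with a median of 8.08%, and 0 to 15.3% in wild-type colons with a median of 7.46%. Its abundance was 2.10 or below in every library, so these shares rest on few reads.

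Igf1r, the signalling receptor, had the lowest mean abundance of the 10 genes. Its abundance was 5.31, 6.31, 5.65, 5.76, 5.54 and 5.87 in Tnfr1-/- replicates 1 to 6, and 4.68, 4.15, 5.97, 7.80 and 5.93 in wild-type replicates 1 to 5. All Tnfr1-/- libraries lay within the wild-type range. Igf1r differed by 0.04 on the log2 scale, with an SE of 0.13 (limma adjusted p = 0.960) and a 95% interval of 0.84-fold to 1.25-fold. Igf2r, the clearing receptor, had 18.5, 20.9, 20.3, 20.9, 22.04 and 18.2 in Tnfr1-/- replicates 1 to 6, and 16.3, 17.0, 18.6, 19.9 and 19.5 in wild-type replicates 1 to 5. It varied least of all 10, with a highest value 1.36 times the lowest, and 4 of 6 Tnfr1-/- libraries were above all wild-type libraries. Its log2 difference was 0.14, with an SE of 0.07 (limma adjusted p = 0.573), and it was 0.0542 without wild-type replicates 1 and 2. Igf2r abundance was 3.51 ± 0.302 times that of Igf1r in Tnfr1-/- colons and 3.305 ± 0.561 times in wild-type colons. Igf1r-201 held 87.1% or more of Igf1r RNA, and Igf2r-201 held 98.3% or more of Igf2r RNA, in every library.

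Igfbp3, the main carrier of these peptides in blood, was the binding protein with the largest difference. Its abundance was 64.1, 85.2, 52.6, 94.7, 56.5 and 75.5 in Tnfr1-/- replicates 1 to 6. Wild-type replicates 1 to 5 had 45.7, 45.6, 47.2, 66.2 and 51.2. All 6 Tnfr1-/- libraries were above 4 of the 5 wild-type libraries, and wild-type replicate 4 lay inside the Tnfr1-/- range. Means were 71.4 ± 16.6 in Tnfr1-/- colons (SD, n = 6) and 51.2 ± 8.71 in wild-type colons (SD, n = 5). The log2 difference of 0.46 (SE 0.16 and 95% interval 0.11 to 0.81) had an unadjusted p of 0.0150 and did not pass over all genes (limma adjusted p = 0.429). By p it ranked 521 among the 15079 genes. With the muscle markers as a covariate its log2 fold change was 0.42 and it was 0.47 without the 3 libraries richest in them. Without wild-type replicates 1 and 2 it was 0.36. Its main transcript, Igfbp3-201, which held 99.0% of its RNA in Tnfr1-/- colons and 98.7% in wild-type colons, had p = 0.0138 and q = 1.00 in the authors' deposited table.

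**Figure D2:**
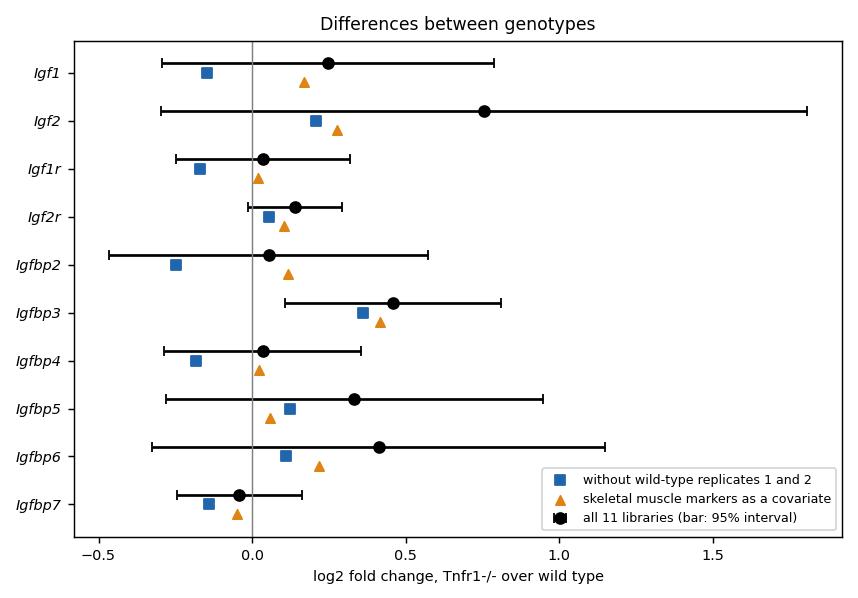
Log2 fold change, Tnfr1-/- over wild type, of the 10 genes. Circles with bars are the fit on all 11 libraries with its 95% interval, squares the fit without wild-type replicates 1 and 2, and triangles the fit with skeletal muscle markers as a covariate. The interval of Igfbp3 (0.11 to 0.81) is the 1 interval that leaves out 0, and that of Igf2 (-0.30 to 1.81) is the widest.

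Igfbp5, which binds to extracellular matrix and is made by muscle cells and fibroblasts, varied with Igf2. Its abundance was 29.1, 90.9, 31.8, 53.9, 66.9 and 48.4 in Tnfr1-/- replicates 1 to 6, and 29.4, 33.6, 39.0, 48.2 and 50.0 in wild-type replicates 1 to 5. Tnfr1-/- replicates 2 and 5 were the highest 2, and Tnfr1-/- replicate 1 was the lowest of all. Igfbp5 differed by 0.33 on the log2 scale, with an SE of 0.28 (limma adjusted p = 0.743). It was 0.12 without wild-type replicates 1 and 2, and leaving out 1 library at a time gave 0.16, without Tnfr1-/- replicate 2, to 0.48, without Tnfr1-/- replicate 1. The difference was 0.0576 with the skeletal muscle markers as a covariate and 0.0948 without the 3 libraries richest in them; the part of muscle RNA was not tested beyond these values.

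Igfbp6, which prefers IGF2 to IGF1, was the lowest of the binding proteins. Its abundance was 5.83, 13.2, 4.53, 9.26, 15.2 and 12.9 in Tnfr1-/- replicates 1 to 6, and 3.88, 6.16, 6.82, 11.7 and 7.98 in wild-type replicates 1 to 5. Of 6 Tnfr1-/- libraries, 3 were above all wild-type libraries and 2 were below 4 of them. The fitted log2 difference was 0.41, with an SE of 0.34 (limma adjusted p = 0.737). It was 0.11 without wild-type replicates 1 and 2, and leaving out 1 library at a time gave 0.22, without wild-type replicate 1, to 0.61, without Tnfr1-/- replicate 3. Between 81 and 462 estimated reads stood behind each value, for a 95% counting interval of up to 22.5% to each side, while every other gene here had at least 551.

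Igfbp2, a binding protein that is abundant in the fetus and can bind integrins, had 46.4, 46.4, 39.4, 38.7, 29.2 and 45.6 in Tnfr1-/- replicates 1 to 6. In wild-type replicates 1 to 5 it had 33.9, 23.7, 47.9, 69.4 and 33.4. Both the lowest and the highest library were wild type. Igfbp2 differed by 0.05 on the log2 scale, with an SE of 0.24 (limma adjusted p = 0.968), and by -0.25 without wild-type replicates 1 and 2. More of its RNA was assigned to the internal start than to the first one. Igfbp2-202, from the internal start, made up 71.5 ± 4.10% in Tnfr1-/- colons (SD, n = 6) and 69.4 ± 4.51% in wild-type colons (SD, n = 5). Igfbp2-201, from the first start, made up 28.4 ± 3.98% in Tnfr1-/- colons and 30.5 ± 4.42% in wild-type colons. The annotated coding sequence of Igfbp2-202 has 158 codons and lacks the first coding exon of Igfbp2-201, which has 305. The share of the internal start was above that of the first start in all 11 libraries. Because the 2 transcripts overlap, the assignment of a read of 75 bases to 1 of them is uncertain, and so is this split.

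Igfbp4 and Igfbp7 were the most abundant of the 10. Igfbp4, which holds IGFs until PAPP-A cuts it, had 116, 125, 123, 132, 160 and 146 in Tnfr1-/- replicates 1 to 6, and 100.1, 106, 131, 183 and 143 in wild-type replicates 1 to 5. Igfbp7, a relative that binds IGFs weakly and is known as a product of vessels and stroma, had 186, 188, 188, 190.5, 228 and 209 in Tnfr1-/- replicates 1 to 6, and 183, 183, 191, 256 and 212 in wild-type replicates 1 to 5. In both genes every Tnfr1-/- library lay within the wild-type range. Igfbp4 differed by 0.03 on the log2 scale, with an SE of 0.15 (limma adjusted p = 0.968). Igfbp7 differed by -0.04, with an SE of 0.09 (limma adjusted p = 0.930) and a 95% interval of 0.84-fold to 1.12-fold. Igfbp4 RNA was split among the coding transcript Igfbp4-201, with 43.0 ± 1.92% in Tnfr1-/- colons and 44.6 ± 4.16% in wild-type colons, and 2 transcripts annotated without a coding sequence. Of these, Igfbp4-203 had the largest share difference of any transcript here, 28.7 ± 3.27% in Tnfr1-/- colons and 25.5 ± 3.66% in wild-type colons (limma adjusted p = 0.801). The Igfbp4 transcripts overlap each other, so the assignment of a read to 1 of them is uncertain here too.

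Where it was tested, the split of these genes among isoforms did not pass a test between the genotypes. Of the 42 transcripts, 5 were listed at 0 in every library and 18 were tested in a fit over 33276 transcripts. None of the 18 was called, where 0.00902% of tested transcripts were, and 2 of 18 had an unadjusted p under 0.05, Igfbp3-201 and Igf2-204, where 8.26% of tested transcripts did. The share of a transcript in its gene was tested for 12 of the 42 among 23510 shares. The shares of Igf2-204 and Igf2-205 were not tested, because their means were below the 0.05 required. Igf2-204 made up 2.48 ± 1.06% of Igf2 in Tnfr1-/- colons and 1.24 ± 0.793% in wild-type colons. Igf2-205 made up 5.69 ± 2.96% in Tnfr1-/- colons and 3.17 ± 1.23% in wild-type colons. None of the 12 tested shares was called, where 0.00425% were, and 0 of 12 had an unadjusted p under 0.05, where 6.74% did. Shares differed by at most 3.21 percentage points between the group means. In the authors' deposited table, 22 transcripts of these genes have a p-value, 1 of them under 0.05, and all have q = 1.00.

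**Figure D3:**
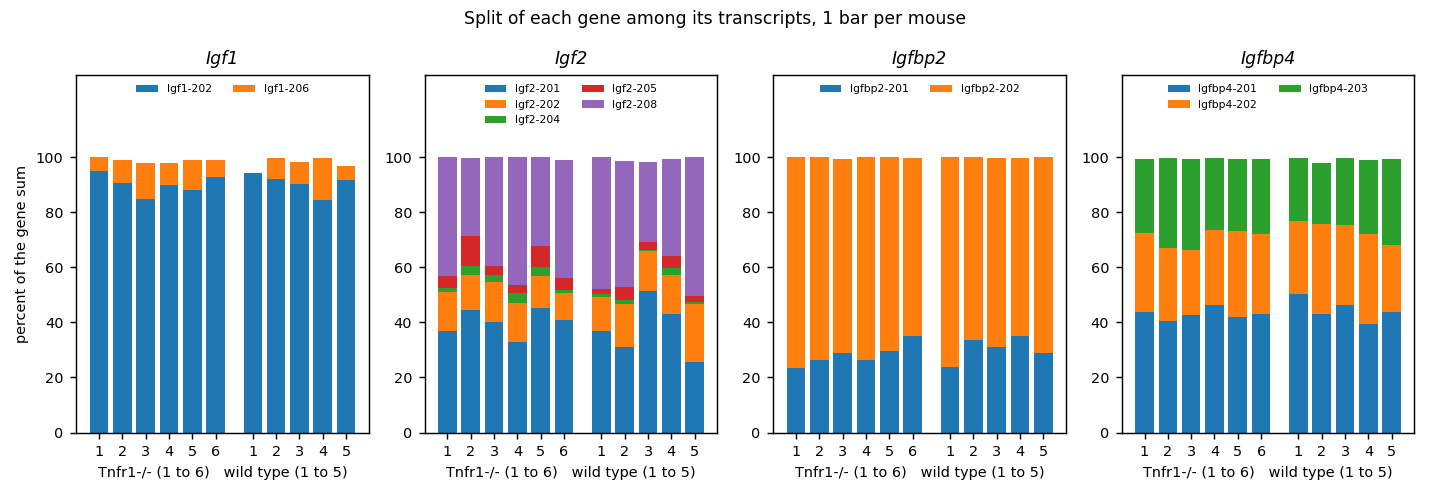
Percent of each gene's abundance in each of its transcripts with a mean of at least 1 or a tested share, 1 bar per mouse, Tnfr1-/- replicates 1 to 6 on the left of each panel and wild-type replicates 1 to 5 on the right. Igf1-202 makes up 84.3% or more of Igf1 in every library, Igfbp2-202 makes up 64.6% or more of Igfbp2, and Igf2-205 is largest in Tnfr1-/- replicate 2 (10.7%).

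Ordered by mean abundance over the 11 libraries, the genes ran Igfbp7 (201), Igfbp4 (133), Igf2 (72.0), Igfbp3 (62.2), Igfbp5 (47.4), Igfbp2 (41.3), Igf2r (19.3), Igf1 (9.86), Igfbp6 (8.86) and Igf1r (5.73). Igfbp7 was above Igfbp4, Igfbp2 above Igf2r, and Igf2r above Igf1 in all 11 libraries. Igfbp4 was above Igf2 in 10, all but Tnfr1-/- replicate 2, where Igf2 was the most abundant of the 10. Igf2 and Igfbp3 were not separated, with Igf2 higher in 4 libraries, nor were Igfbp5 and Igfbp2, with Igfbp5 higher in 6, nor Igf1 and Igfbp6, with Igf1 higher in 7. Igf2 exceeded Igf1 by 8.22 ± 4.89 times in Tnfr1-/- colons (SD, n = 6) and by 5.43 ± 2.01 times in wild-type colons (SD, n = 5). The medians of this ratio were 5.47 in Tnfr1-/- colons and 5.24 in wild-type colons. It was highest in Tnfr1-/- replicates 2 (17.3) and 5 (10.5) and wild-type replicate 5 (8.77), the libraries with most skeletal muscle RNA. The binding proteins together exceeded the ligands together by 6.43 ± 2.64 times in Tnfr1-/- colons and by 9.57 ± 3.75 times in wild-type colons, with the lowest ratio, 2.57, in Tnfr1-/- replicate 2. The groups overlapped in each of these ratios. The order and the ratios use sums that include transcripts annotated without a coding sequence. Of these, Igf2-208 averaged 27.0, Igfbp4-202 37.9, Igfbp4-203 36.4 and Igfbp5-202 9.81 over the 11 libraries. The coding transcript Igfbp4-201 averaged 57.8, and Igfbp3-201 averaged 61.5. Order and ratios were not taken for coding transcripts alone.

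Several of the 10 genes varied with the level of cell type markers from library to library. Each gene was set against the log2 of the summed abundance of each marker list over the 11 libraries. Of these 140 relations, 16 passed on Pearson's r and 7 on Spearman's rho after Benjamini-Hochberg adjustment. Igfbp3 passed with none of the 14 lists, with a smallest adjusted p of 0.210 for r and 0.114 for rho by permutation, and on rho the 7 belonged to Igf1, Igf1r, Igfbp4 and Igfbp7. Igfbp4 followed 8 fibroblast markers, mostly collagen RNA, with r = 0.97 (permutation p = 1e-05, the smallest 100000 permutations can give; adjusted p = 0.0014) and rho = 0.97 (permutation p = 2e-05, adjusted p = 0.0028). Without the 2 libraries farthest from the median, r was 0.96. It was 0.96 within Tnfr1-/- colons and 0.99 within wild-type colons. Igf1 followed the same markers with r = 0.92 (permutation p = 2e-05, adjusted p = 0.0014) and rho = 0.95 (permutation p = 5e-05, adjusted p = 0.0035). For Igf1, r was 0.93 without the 2 farthest libraries, 0.87 within Tnfr1-/- colons and 0.94 within wild-type colons. Igfbp7 did so with r = 0.86 (permutation p = 9e-05, adjusted p = 0.00315) and rho = 0.94 (permutation p = 0.00011, adjusted p = 0.00513), and with r = 0.79 without the 2 farthest. The fibroblast markers summed to 1863 to 2807 in Tnfr1-/- colons, with a median of 2307, and to 1498 to 3375 in wild-type colons, with a median of 2164.

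Igf2 and Igfbp5 followed the skeletal muscle markers, but less firmly. For Igf2, r was 0.84 (permutation p = 0.00112, adjusted p = 0.0224) and rho was 0.57 (permutation p = 0.0707, adjusted p = 0.251). For Igfbp5, r was 0.82 (permutation p = 0.0018, adjusted p = 0.0252) and rho was 0.59 (permutation p = 0.061, adjusted p = 0.231). Without Tnfr1-/- replicates 2 and 5, r was 0.51 for Igf2 and 0.41 for Igfbp5, so both relations rested largely on those 2 mice. Within Tnfr1-/- colons r was 0.94 for Igf2 and 0.87 for Igfbp5, and within wild-type colons it was 0.58 for Igf2 and 0.43 for Igfbp5. Neither gene passed with the fibroblast markers, though rho was higher there than with the muscle markers. With fibroblast markers Igf2 had r = 0.58 (permutation adjusted p = 0.208) and rho = 0.75 (permutation adjusted p = 0.101). Igfbp5 had r = 0.61 (permutation adjusted p = 0.186) and rho = 0.68 (permutation adjusted p = 0.16). Without wild-type replicates 2 and 4, r with fibroblast markers was 0.69 for Igf2 and 0.71 for Igfbp5. Igfbp2 followed the 8 smooth muscle markers, with r = 0.88 (permutation p = 0.00105, adjusted p = 0.0224) and rho = 0.70 (permutation p = 0.0196, adjusted p = 0.144). That r was 0.56 without wild-type replicates 2 and 4. Igf1r followed 6 markers of enteric glia, with r = 0.88 (permutation p = 5e-05, adjusted p = 0.00233) and rho = 0.85 (permutation p = 0.00125, adjusted p = 0.025). That r was 0.70 without wild-type replicates 1 and 2, 0.61 within Tnfr1-/- colons and 0.93 within wild-type colons. Igf1r also passed on r with the fibroblast markers (r = 0.87, permutation adjusted p = 0.0224), but not on rho (0.65, adjusted p = 0.185). The glia markers also passed on r with Igf1 (0.84) and Igfbp4 (0.83), each with a permutation adjusted p of 0.0247, and on rho with Igfbp7 (0.89, adjusted p = 0.022). Mesothelium markers passed on r with Igf1 (0.79), Igfbp4 (0.78) and Igfbp6 (0.79), at permutation adjusted p of 0.0427, 0.0435 and 0.0477. On rho they passed with Igfbp4 (0.86, adjusted p = 0.025). Igf1 with colon epithelium (r = -0.80), Igfbp6 with fibroblast (0.79) and Igf2r with liver markers (0.78) passed at permutation adjusted p = 0.0427. Igfbp7 passed on rho with enteric neurons (0.87, adjusted p = 0.025). Markers and genes were read from the same libraries, and all abundances of a library share 1 total.

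**Figure D4:**
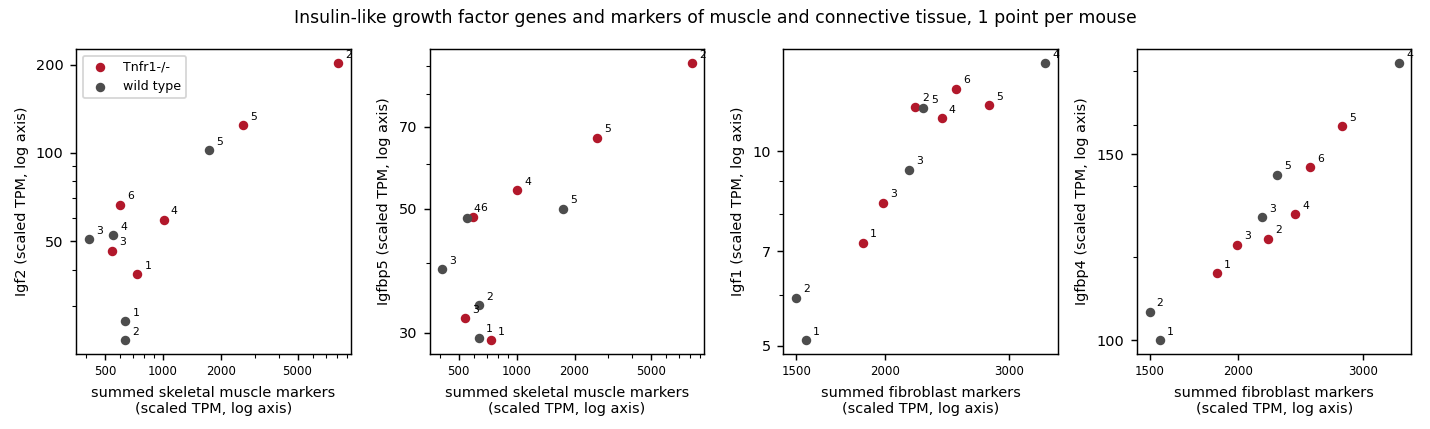
Abundance of Igf2, Igfbp5, Igf1 and Igfbp4 (scaled TPM) against the summed abundance of 6 skeletal muscle markers or 8 fibroblast markers (scaled TPM), all axes logarithmic, 1 point per mouse with its replicate number, Tnfr1-/- and wild type by colour. Tnfr1-/- replicate 2 is at the far right for muscle markers (8118), and wild-type replicate 4 at the far right for fibroblast markers (3375).

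After the group means were taken out, the log2 levels of the genes formed pairs across the 11 libraries, given here as description. Igfbp4 and Igfbp7 had r = 0.95, Igf1 and Igfbp4 r = 0.91, and Igf2 and Igfbp5 r = 0.90. Among 10818 tested genes with a mean of at least 5, the 3 most like Igfbp4 were Col6a1 (r = 0.99), Col3a1 (r = 0.98) and Cd248 (r = 0.98), which encode 2 collagen chains and endosialin. Those most like Igf1 were Crtc3 (r = 0.98), Zfp146 (r = 0.97) and the collagen gene Col1a2 (r = 0.97). Those most like Igf2 were Iffo1 (r = 0.98), Actc1 (r = 0.97), which encodes the actin of cardiac and developing skeletal muscle, and Atp1b2 (r = 0.96). Those most like Igfbp5 were Akt2 (r = 0.97), Amotl1 (r = 0.95) and Casq2 (r = 0.95), the last a calcium store protein of muscle. For Igfbp7 they were Kank2, Tprgl and Acvrl1, for Igf1r Camkk2, Fgfr1 and Rapgef1, for Igf2r Git2, Rnf122 and Zfp12, for Igfbp2 Inafm2, Abca2 and Epn2, and for Igfbp6 Clec3b, Slc39a13 and Kdm1a. Igfbp3 had the loosest match, with Rogdi (r = 0.91), Cwc27 and Trrap.

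Genes that act around the ligands were measured beside them. Of 11 other carriers, proteases and inhibitors of them, 7 were tested, 6 with a fitted difference above 0 and 1 below, beside 47.9% above 0 over all tested genes. Of the 7, 0 were called and 0 had an unadjusted p under 0.05, where 0.00663% and 9.37% of all tested genes did. Their median log2 fold change was 0.08. Ctsd, a lysosomal protease, averaged 257 ± 25.9 in Tnfr1-/- colons and 242 ± 18.5 in wild-type colons (limma adjusted p = 0.752). Furin, a protease that processes growth factor precursors, averaged 35.9 ± 3.56 in Tnfr1-/- colons and 34.0 ± 5.24 in wild-type colons. Htra1, a secreted serine protease, averaged 55.2 ± 10.1 in Tnfr1-/- colons and 54.7 ± 7.03 in wild-type colons, and Htra3, its relative, 18.6 ± 4.42 in Tnfr1-/- colons and 17.6 ± 6.25 in wild-type colons. Igfbp1 was at 0.0275 or below, Pappa at 0.610 or below and Igfals, the blood partner of IGFBP3, at 1.37 or below in every library, too low to be tested.

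In the signalling chain below the receptor, 24 of 26 genes were tested, 19 with a fitted difference above 0 and 5 below, beside 47.9% above 0 over all tested genes, and with 0 called, where 0.00663% of all tested genes were. The 3 with an unadjusted p under 0.05, where 9.37% of all tested genes had one, were Pik3ca, Irs1 and Tsc1. Pik3ca, a catalytic subunit of PI3-kinase, averaged 25.7 ± 2.75 in Tnfr1-/- colons (SD, n = 6) and 22.04 ± 1.04 in wild-type colons (SD, n = 5), a log2 difference of 0.21 (SE 0.07, limma adjusted p = 0.429). Irs1, the adaptor that links the receptor to PI3-kinase, averaged 2.23 ± 0.356 in Tnfr1-/- colons and 1.60 ± 0.388 in wild-type colons (limma adjusted p = 0.429). Pik3ca and Irs1 were lowest in wild-type replicates 1 (21.1 and 1.38) and 2 (20.9 and 1.33). Irs1 was highest in Tnfr1-/- replicates 2 (2.75) and 5 (2.49). Tsc1, part of the brake on mTORC1, averaged 6.75 ± 0.465 in Tnfr1-/- colons and 6.00 ± 0.506 in wild-type colons (limma adjusted p = 0.526). The most abundant 2, Akt1 and Rheb, averaged 111 ± 4.48 and 103 ± 3.75 in Tnfr1-/- colons, and 114 ± 6.99 and 102 ± 10.7 in wild-type colons. The median log2 fold change of the 24 was 0.06.

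Of 10 genes of the growth hormone axis, which controls Igf1, 9 were tested, 4 with a fitted difference above 0 and 5 below. Of the 9, 0 were called, where 0.00663% of all tested genes were, and 3 had an unadjusted p under 0.05, where 9.37% did. Cish, a feedback inhibitor induced through STAT5, averaged 11.6 ± 1.65 in Tnfr1-/- colons and 8.59 ± 0.977 in wild-type colons, a log2 difference of 0.41 (SE 0.11, limma adjusted p = 0.339). Socs3, an inhibitor induced mainly through STAT3, averaged 7.51 ± 2.37 in Tnfr1-/- colons and 11.5 ± 3.27 in wild-type colons, a log2 difference of -0.59 (SE 0.21, limma adjusted p = 0.433). Socs3 was highest in wild-type replicates 1 (15.4) and 2 (14.6). Sst, which encodes somatostatin, averaged 66.0 ± 8.64 in Tnfr1-/- colons and 91.0 ± 25.2 in wild-type colons (limma adjusted p = 0.472). Sst RNA here is that of the colon wall, not of the brain. Ghr, the growth hormone receptor, averaged 37.0 ± 4.45 in Tnfr1-/- colons and 36.7 ± 6.90 in wild-type colons.

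Igf2 belongs to a group of imprinted genes that act on growth before and after birth. Of 20 such genes listed, 15 were in the table and all 15 were tested, 10 with a fitted difference above 0 and 5 below, beside 47.9% above 0 over all tested genes. Of the 15, 0 were called, where 0.00663% of all tested genes were, and 1 had an unadjusted p under 0.05, where 9.37% did. That gene was Dlk1, which encodes a Delta-like protein of fetal and mesenchymal cells. Dlk1 averaged 22.2 ± 6.81 in Tnfr1-/- colons and 14.7 ± 5.82 in wild-type colons, a log2 difference of 0.62 (SE 0.28, limma adjusted p = 0.526). Its level was lowest in wild-type replicates 1 (8.97) and 2 (8.43) and highest in Tnfr1-/- replicates 2 (33.6) and 5 (25.1). Ascl2, a transcription factor of intestinal stem cells, averaged 5.41 ± 0.477 in Tnfr1-/- colons and 6.63 ± 1.75 in wild-type colons, and Peg10, a gene derived from a retrotransposon, 2.55 ± 0.345 in Tnfr1-/- colons and 2.15 ± 0.901 in wild-type colons. Gnas averaged 582 ± 44.9 in Tnfr1-/- colons and 585 ± 35.7 in wild-type colons, and Dcn 251 ± 57.8 in Tnfr1-/- colons and 229 ± 79.1 in wild-type colons. H19, Meg3, Rian, Kcnq1ot1 and Airn, noncoding genes of the same group, were not analysed here.

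Among 7 proteins that bind Igf2 RNA or hold tissues in a fetal growth programme, 5 were tested, all with a fitted difference below 0, where 47.9% of all tested genes were above 0. Of the 5, 0 were called and 0 had an unadjusted p under 0.05, beside 0.00663% and 9.37% of all tested genes. Their median log2 fold change was -0.16. Hmga2, a chromatin protein of fetal tissue, averaged 8.69 ± 1.52 in Tnfr1-/- colons and 11.0 ± 3.49 in wild-type colons (limma adjusted p = 0.649). Its relative Hmga1 averaged 158 ± 7.56 in Tnfr1-/- colons and 166 ± 3.33 in wild-type colons (limma adjusted p = 0.632). Igf2bp3 averaged 11.3 ± 2.43 in Tnfr1-/- colons and 13.0 ± 2.83 in wild-type colons, and Igf2bp2 25.3 ± 3.57 in Tnfr1-/- colons and 27.0 ± 4.05 in wild-type colons. Lin28a and Lin28b were at 0.143 or below in every library.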

How the data were processed

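RNA from 11 colons was measured. Per the labels' protocols, stranded mRNA libraries were read from 1 end for 75 bases. The tools named in the submitters' processing notes, without versions, are kallisto, sleuth and CASAVA, and the build is mm10. Per the file headers, the deposited table holds a normalized signal per transcript and sample, which has the form of TPM divided by a size factor. Its p-value and q-value columns are the authors' own test, its mean column holds natural log (ln) values, and its log2 fold change is the authors' ratio of group means. The strand setting of the counting is not given in the sources used here. Of the 10 genes, 2 share exonic bases with another gene: Igf2 with Gm49394 and the antisense Igf2os, and Igfbp7 with the antisense Polr2b over 85 bases.

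Repeated lines of 584 transcripts, identical in value, were dropped, and values were summed per Ensembl gene. The 97 transcripts without a gene held 0.031% of abundance and were left out. Depth was estimated by scaling each library until the low values of single-transcript genes came closest to whole reads (tolerance 0.02, fragment length 200 bases): 52.5 to 54.4% were whole, against 2.04 to 2.22% at a typical scaling, so no count test was run. Estimated depth ran from 27.5 to 42.0 M reads. Counting intervals cover counting error only.

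Genes and transcripts with a value of at least 1 in at least 5 libraries entered a limma fit (version 3.58.1, R 4.3.3) of log2(value + 0.5) (two-sided, with the empirical Bayes trend). Features with a Benjamini-Hochberg adjusted p under 0.05, over all features tested, were called. Fold changes on this scale understate changes of low genes. Shares were tested on the arcsine square root for transcripts with a mean share of at least 0.05 in genes with a mean of at least 5. Simulations were built on the observed means and variances, with changes placed only in genes or transcripts with a mean above 5. In a fit over 15079 genes, 64.2% of 1.5-fold, 92.5% of 2-fold and 100.0% of 4-fold changes were called. In a fit over 33276 transcripts these were 59.7%, 67.2% and 92.4%. With as few true changes as calls here, these are upper limits, and they do not cover features with lower means. Correlations use log2(value + 0.5), with 100000 two-sided permutations. Where a symbol has 2 Ensembl genes (Dlk1, Foxd3 and Muc2) both had the same mean and 1 of them was used. Other tools were Python 3.11.15, pandas 2.3.3, numpy 2.4.6, scipy 1.17.1 and matplotlib 3.10.9. Gene and transcript coordinates follow GENCODE M21 (GRCm38, also called mm10), and promoter bases RefSeq on GRCm38.p6.

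The genes, the lists and the alternatives were chosen with earlier results of these data known. Named are the 10 genes, their transcripts with a mean of at least 1, Tnfrsf1a, from each pathway list the 3 tested genes with the smallest p and the 2 with the highest mean, and for each of the 10 the 3 genes with the most similar pattern. Igf1-206 was added because its share was tested, and genes too low to be tested were named after their values were seen. Alternatives were other pseudocounts and filters, rescaling, quantile normalization, library weights, a replicate block, each library left out and wild-type replicates 1 and 2 left out; covariates for sex and for skeletal muscle markers and leaving out the 3 libraries with most muscle RNA were added after seeing the data. Nothing in the labels says whether the mice were littermates, and p-values reflect the spread between these mice.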

Additional observations from a re-analysis of the deposited data

Results flagged for a closer look

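In groups of 5 or 6 mice, 1 library stood apart from the others of its group in 9 of 136 sets of values checked, where chance gives about 1 in 20, or 6.8. Wild-type replicate 4 was high for Igfbp3 (66.2, nearest library 51.2), for its transcript Igfbp3-201 (65.1, nearest 50.6) and for Irs1 (2.27, nearest 1.59). Wild-type replicate 5 was high for Igf2-208 (51.6, nearest 18.6) and Igf2-202 (21.2, nearest 7.47). Wild-type replicate 2 was low for Rheb (83.3, nearest 105) and high for Hmga1 (172, nearest 164). Tnfr1-/- replicate 2 was high for Socs3 (12.2, nearest 7.35) and low for the share of Igf1r-201 in Igf1r (93.6%, nearest 96.9%). Without wild-type replicate 4 the log2 fold change of Igfbp3 was 0.56 (limma adjusted p = 0.266).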

How the results depend on the processing

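Of 228 values of the 10 genes under other settings, 212 kept their direction, 0 were called and 16 were reversed, all of genes within 0.25 of 0 on the log2 scale; the cause was not tested. Without wild-type replicates 1 and 2 the log2 fold change was -0.15 for Igf1, -0.17 for Igf1r, -0.25 for Igfbp2 and -0.18 for Igfbp4. With library weights it was -0.0517 for Igf1r, -0.0451 for Igfbp2 and -0.0559 for Igfbp4, and with quantile normalization it was -0.0022 for Igf1r. Leaving out 1 library at a time gave -0.0616 to 0.15 for Igf1r, -0.12 to 0.26 for Igfbp2, -0.0590 to 0.16 for Igfbp4 and -0.0828 to 0.0418 for Igfbp7. For Igfbp3 it gave 0.37 to 0.56, and over all 23 settings 0.36 to 0.56, with an unadjusted p under 0.05 in 22 and a lowest limma adjusted p of 0.252; the exception left out wild-type replicates 1 and 2. A filter at a value of 10 gave no value for Igf1r and Igfbp6.

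Genes called numbered 1, and 1 to 2 leaving out 1 library at a time (2 without wild-type replicate 1), 3 with library weights and 4 with sex, read from Eif2s3y in 2 of 6 Tnfr1-/- and 2 of 5 wild-type mice, as a covariate. Transcripts called numbered 3, and 1 to 10 leaving out 1 library (10 if wild-type replicate 2 was omitted, 6 for wild-type replicates 4 or 5, and 1 for wild-type replicate 1 or Tnfr1-/- replicates 3 or 5), 5 without wild-type replicates 1 and 2, 8 with sex and 1 without the 3 libraries with most skeletal muscle RNA. Isoform shares called numbered 1, and 0 to 7 leaving out 1 library (7 if wild-type replicate 4 was omitted, 3 for Tnfr1-/- replicate 4, 2 for Tnfr1-/- replicate 6, and 0 for Tnfr1-/- replicate 1 or wild-type replicates 3 or 5), and 0 without wild-type replicates 1 and 2, with muscle markers as a covariate and without those 3 libraries. With the replicate number as a block there were 1 gene, 2 transcripts and 0 shares. Same-numbered libraries correlated at 0.27, -0.01, 0.38, -0.22 and 0.33 after group means were taken out. Of the 5 Tnfr1-/- libraries with a same-numbered wild type, 1 correlated best with its own number. These values cannot show whether the mice were paired, and the numbers were not used as pairs in the main fit. With 5 or 6 mice per group, differences under about the intervals given could not be shown.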
